A study of Canis lupus familiaris with 20 samples.

Results

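PTGS2 encodes cyclooxygenase-2, the inducible enzyme that turns arachidonic acid into prostaglandin H2. It was followed here in canine mammary cancer cells and canine macrophages grown together or apart. All probes whose RefSeq accession belonged to PTGS2, 1 of the 1045 genes with a symbol, were taken. This gave 1 probe of the 43603 distinct probes on the array, present as 1 spot per array. The spot carried no outlier mark and was not saturated on any of the 20 arrays.

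Cyclooxygenase-2 is low in most resting cells and is induced by cytokines, bacterial products and growth factors, in macrophages as well as in epithelial cells. Its product is passed to terminal synthases such as PTGES, which makes prostaglandin E2, and prostaglandin E2 then acts through receptors that include PTGER2 and PTGER4. In mammary tumours the enzyme has been studied both as a product of the cancer cells and as a product of the macrophages around them.

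Of the 5 cancer lines, CMT-W1 and CMT-W2 came from adenocarcinomas, P114 from an anaplastic cancer, CMT-U309 from a spindle-cell tumour of the mammary gland and CMT-U27 from a simple carcinoma. Macrophages were CD64+ monocytes sorted from the blood of healthy dogs and layered on cancer cells that had been stained with the dye CMTMR. After 72 h the co-culture was trypsinised and sorted into stained cancer cells and unstained macrophages, whereas the mono-cultures of either cell type, grown without the other, were scraped and not sorted. The effects of sorting and of co-culture therefore cannot be told apart in any ratio below. Each of the 10 sorted populations was hybridised against its mono-culture on 2 arrays with the dyes exchanged. These 2 arrays hold the same RNAs and counted as 1 replicate, so n = 5 co-cultures for each cell type, each with a different line. The methods do not say how many separate macrophage mono-cultures were grown, so the p-values measure the spread between these RNAs, part of which may be technical.

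Arrays that carried the same RNAs with exchanged dyes correlated across genes at r = 0.69 to 0.95 (Pearson, log2 ratios). The array number, not counting depth, limits the precision. Macrophage markers were measured in both sorted populations. Of 23 macrophage markers listed, 11 had a probe, and 10 of them, CYBB being the other, were higher in co-cultured than in mono-cultured cancer cells and lower in co-cultured than in mono-cultured macrophages (limma, adjusted p under 0.05, where 6.58% of all genes were higher in cancer cells and 28.1% lower in macrophages). Of 4 stromal markers with a probe 3 were tested, and 1, CAV1 (caveolin-1), was higher in co-cultured macrophages (log2 ratio 5.83 ± 0.72, adjusted p = 7.05e-05). The log2 summed level of the 4 ranged from 12.51 to 12.92 in mono-cultured and from 12.72 to 15.99 in co-cultured macrophages, and that of 3 epithelial markers from 10.52 to 10.77 and from 9.56 to 12.33. The log2 of the summed level of the 11 markers ranged from 11.74 to 14.62 in mono-cultured cancer cells, from 13.70 to 18.46 in co-cultured cancer cells, from 15.65 to 17.48 in co-cultured macrophages and from 19.20 to 19.60 in mono-cultured macrophages. In the co-culture with CMT-U27 all 11 were higher in the population labelled cancer cells than in the population labelled macrophages, which goes against those labels, so the main PTGS2 results are also given without that co-culture. With CMT-W2, 6 of the 11 were higher in the population labelled cancer cells and 5 were lower (median log2 difference 0.83). In that population 2 were higher with P114, 2 with CMT-W1 and 0 with CMT-U309. Without CMT-W2 the mean PTGS2 log2 ratio in cancer cells was 7.04 (limma, adjusted p = 0.0212). The ratio difference, macrophages minus cancer cells, was then -7.46 (adjusted p = 0.0141). The study describes a check of purity after sorting and took the sorted populations as pure. Between the co-cultured populations only 2 of 25241 genes differed (0.00792%), 659 at an unadjusted p under 0.05. With the populations of a co-culture as pairs, 1 gene differed, and 2923 at an unadjusted p under 0.05. In bulk RNA, fewer cells of a type and less RNA per cell cannot be told apart. None of the 3 housekeeping genes tested (GAPDH, ACTB and HPRT1) passed the test in cancer cells, and 1 was higher in macrophages, as were 21.2% of all genes.

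PTGS2 was higher after co-culture in the cancer cells of all 5 lines. The log2 ratio (co-culture relative to mono-culture) was 9.95 in CMT-U27, 7.93 in CMT-W1, 7.66 in CMT-W2, 6.34 in P114 and 3.95 in CMT-U309. As folds, these were 987 in CMT-U27, 203 in CMT-W2, 81.0 in P114 and 15.5 in CMT-U309, and only a bound in CMT-W1. All 10 arrays were past the 3-fold limit that the study used, with log2 ratios between 3.95 and 10.45.

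The ratios of CMT-W1 and CMT-U27 rested on dim mono-culture spots. In mono-cultured CMT-W1 the spot cleared the background threshold on 0 of 2 arrays, and in mono-cultured CMT-U27 on 1 of 2. For CMT-W1 only a bound can be given. Against the higher, on each array, of the spot's own signal and the dimmest signal of any probe well above background, PTGS2 was at least 84.2-fold higher after co-culture. In the other 3 lines the spot was well above background in both cultures on both arrays. The dye orientations differed by 1.00 in log2 ratio for CMT-U27, 0.81 for CMT-W1 and 0.57 for CMT-W2, and by 0.01 for P114 and 0.0024 for CMT-U309, so the gap was wider in the 3 lines with the dimmer mono-cultures.

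The mean log2 ratio in cancer cells was 7.17 ± 2.21 (SD, n = 5, SE 0.75, 95% interval 5.43 to 8.90), and limma over 24034 genes gave an adjusted p of 0.00327. In this comparison 14.2% of all genes tested were called and 6.58% were higher at an adjusted p under 0.05. PTGS2 had rank 5 of the 24034 genes by its mean, and rank 2 of the 734 with a symbol. In all counts of genes tested, an array entry without a symbol was counted as a gene. Without CMT-U27 the mean was 6.47 (adjusted p = 0.0104). The exact sign-flip test over the 5 ratios gave p = 0.0625, two-sided, which is the smallest value that 5 co-cultures allow. With normexp background correction and loess, in place of the scanner software's own, the mean was 5.41 and the call was lost (adjusted p = 0.0531). The call was also lost with the methods' t-test in place of limma (p = 0.00197 before and 0.148 after adjustment).

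In macrophages PTGS2 moved one way in some co-cultures and the other way in the rest. The log2 ratio was 2.93 with P114 and 1.28 with CMT-U309, against -0.53 with CMT-U27, -1.46 with CMT-W2 and -5.35 with CMT-W1. These correspond to 7.60-fold and 2.43-fold higher levels and to 1.44-fold, 2.75-fold and 40.7-fold lower levels. Every ratio had the same sign in both dye orientations, whose gap was at most 0.93, and all spots were well above background, and the ratios of the 5 co-cultures spanned 8.27. Each line was co-cultured once, so variation between cultures of the same line was not measured here or in any order of lines given below. Of the 10 arrays, 2 were at least 3-fold up (P114) and 2 at least 3-fold down (CMT-W1).

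The mean log2 ratio in macrophages was -0.63 ± 3.13 (SD, n = 5, 95% interval -3.03 to 1.78) and did not pass the test (adjusted p = 0.638, limma over 24227 genes, of which 49.3% passed, 21.2% higher and 28.1% lower). The interval does not show that PTGS2 was unchanged. The sign of this mean rested on CMT-W1, without which it was 0.55 (adjusted p = 0.537). The mean moved from -0.63 to -1.51 without P114, to -1.10 without CMT-U309 and to -0.42 without CMT-W2, and was -0.65 without CMT-U27.

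**Figure D1:**
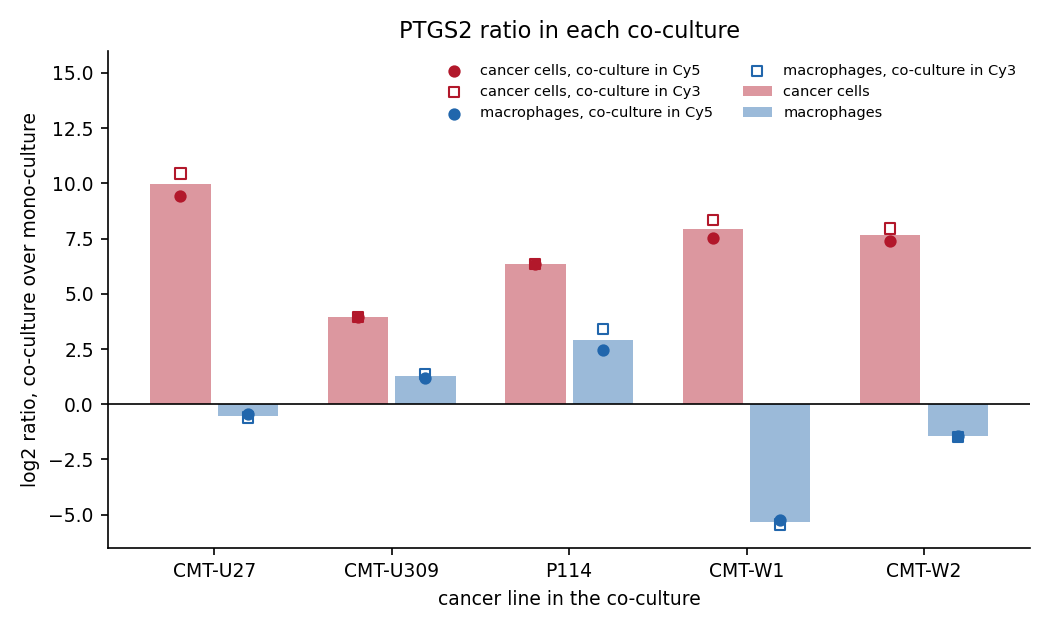
PTGS2 log2 ratio, co-culture relative to mono-culture (vertical axis), in each co-culture (horizontal axis). Bars are means of a dye-swap pair, with filled circles for the array with the co-culture in Cy5 and open squares for Cy3. All 5 cancer cell ratios lie above 0 (3.95 to 9.95), and the macrophage ratios run from -5.35 to 2.93.

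The ratios of the 2 cell types did not overlap, since the highest macrophage value (2.93) lay below the lowest cancer cell value (3.95). The difference, macrophages minus cancer cells, was -7.79 on the log2 scale (95% interval -10.93 to -4.65, adjusted p = 0.00186, limma over 25241 genes, of which 31.7% passed in either direction, 15% higher and 16.7% lower). The exact permutation test, two-sided, gave p = 0.00794, the smallest that 5 against 5 allows. Without CMT-U27 the difference was -7.12 (adjusted p = 0.0121). Both the limma test and the permutation test left out the pairing by co-culture. With the populations of a co-culture as pairs, limma gave an adjusted p of 0.00873. A cell type shared a slide with the other on 1 slide only, and with slide as a fixed block, which leaves the macrophages of CMT-U27 against the cancer cells of CMT-W1, the difference was -8.46 (adjusted p = 0.378).

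The levels behind these ratios are log2 signals of the probe after normalization between arrays, averaged over the dye-swap pair. In mono-cultured cancer cells the PTGS2 level was 12.58 in CMT-U309, 12.15 in P114, 10.13 in CMT-W2, 7.15 in CMT-U27 and 5.74 in CMT-W1. The value of CMT-W1 was below background, and at the dimmest signal of a probe above background its level was at most 7.27. From CMT-U309 to CMT-U27 the levels spanned 43.1-fold, and the mean over the 5 lines, with CMT-W1 as measured, was 9.55 ± 3.03 (SD, n = 5). CMT-U309 and P114 were neighbours that differed about as much as the arrays of a single line (gap between dyes 0.40 in each). CMT-U27 and CMT-W1 had gaps between dyes of 1.29 and 1.22 and were mostly not well above background, so their order is not settled by these spots. The adenocarcinoma lines (CMT-W1 and CMT-W2, 5.74 and 10.13) overlapped the range of the other 3 lines, and no test was made between 2 and 3 lines.

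After co-culture the PTGS2 level of the cancer cells was 18.49 in P114, 17.80 in CMT-W2, 17.10 in CMT-U27, 16.53 in CMT-U309 and 13.66 in CMT-W1 (mean 16.72 ± 1.86, SD, n = 5). CMT-W1 lay below the other 4 lines, and even its level exceeded that of every mono-cultured line. CMT-U309, which had the highest level in mono-culture, had the smallest ratio. Because the mono-culture level is the denominator of the ratio, the order of the ratios is not independent of the baseline order.

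In mono-cultured macrophages the PTGS2 level was nearly constant, between 15.29 and 16.08 (mean 15.65 ± 0.29, SD, n = 5), a spread of 1.73-fold. Whether these 5 RNAs came from separate cultures is not stated. In co-cultured macrophages it was 18.22 with P114, 16.79 with CMT-U309, 15.15 with CMT-U27, 14.22 with CMT-W2 and 10.74 with CMT-W1 (mean 15.02 ± 2.84, SD, n = 5). The 5 co-cultures spanned 179-fold, with gaps between dyes, a technical error only, of at most 0.37.

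**Figure D2:**
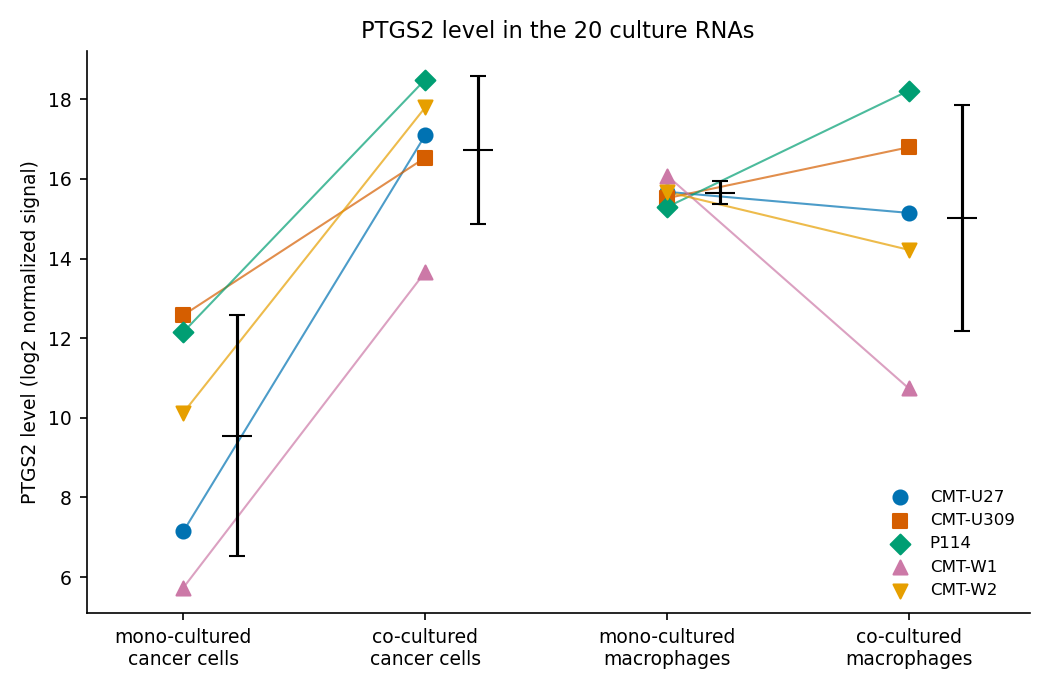
PTGS2 level (vertical axis, log2 normalized signal) in the 20 culture RNAs, by culture (horizontal axis). Symbols are lines, thin lines join the RNAs hybridised against each other, and bars give mean ± SD over 5. Mono-cultured cancer cells lie at 5.74 to 12.58, below all 5 mono-cultured macrophage RNAs (15.29 to 16.08), and the co-cultured populations overlap.

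Grown alone, the macrophages carried more PTGS2 than the cancer cells. The level of mono-cultured macrophages exceeded that of mono-cultured cancer cells by 6.10 on the log2 scale (95% interval 3.54 to 8.66, adjusted p = 0.00216, limma), without overlap, and the exact permutation test gave p = 0.00794, the smallest possible. Without CMT-U27 the difference was 5.49 (adjusted p = 0.0150). Between these cultures 33.2% of genes passed in either direction. Mono-cultured cancer cells held 11.9% of the mean mono-cultured macrophage level of PTGS2 in CMT-U309, 8.88% in P114, 2.18% in CMT-W2 and 0.276% in CMT-U27. For CMT-W1, whose spot was below background on both arrays, the upper limit was 0.30%.

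Between the co-cultured populations the difference did not pass the test. Co-cultured macrophages minus co-cultured cancer cells gave -1.69 (95% interval -4.53 to 1.14, adjusted p = 1.00, exact permutation p = 0.317), and -1.63 without CMT-U27. The interval and these p-values left out the pairing by co-culture. With the populations of a co-culture as pairs, limma gave p = 0.0164 before adjustment and 0.411 after. Within a single co-culture PTGS2 was higher in the cancer cells than in the macrophages by 11.9-fold with CMT-W2, 7.60-fold with CMT-W1 and 3.87-fold with CMT-U27. With P114 it was 1.21-fold higher and with CMT-U309 1.20-fold lower, differences no larger than the wider gap between dyes of those RNAs. In both sorted populations P114 was highest and CMT-W1 lowest. Since these populations came from the same flask, the shared order is a description over 5 co-cultures.

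Co-cultured cancer cells passed the mean PTGS2 level of mono-cultured macrophages in 4 of 5 lines. They held 719% of the mean mono-cultured macrophage level in P114, 443% in CMT-W2, 273% in CMT-U27, 185% in CMT-U309 and 25.3% in CMT-W1. The mean difference of 1.07 on the log2 scale (95% interval -0.56 to 2.70) did not pass the test (adjusted p = 0.310, limma, exact permutation p = 0.238), in a comparison where 26.9% of genes passed. It rested on CMT-W1, without which it was 1.94 (adjusted p = 0.00619). It moved to 0.53 without P114 (adjusted p = 0.676) and was 0.98 without CMT-U27 (adjusted p = 0.477). With slide as a fixed block it was -2.01 (adjusted p = 0.114).

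The macrophage markers of the same RNAs were set on this scale too. In co-cultured cancer cells their median was 56.8% of the mono-cultured macrophage level in CMT-U27, 13.0% in CMT-U309, 9.31% in CMT-W2, 4.46% in P114 and 2.42% in CMT-W1. PTGS2 lay above all 11 markers in each of the 5 lines. P114 had the highest PTGS2 level and the second lowest marker median, and CMT-W1 was lowest in both. In mono-cultured cancer cells PTGS2 was already above all 11 in CMT-U309 and P114. There it was above 9 in CMT-W2, 3 in CMT-W1 (spot below background) and 0 in CMT-U27. In co-cultured macrophages the marker median was 23.5% with CMT-U309, 17.4% with CMT-U27, 6.52% with P114, 6.26% with CMT-W1 and 4.38% with CMT-W2. PTGS2 there was 593% with P114, 221% with CMT-U309, 70.6% with CMT-U27, 37.1% with CMT-W2 and 3.32% with CMT-W1, so that only with CMT-W1 did it fall below the marker median. It was above all 11 markers with P114, CMT-U309 and CMT-U27, above 9 with CMT-W2 and above 4 with CMT-W1. The part of macrophage RNA in the cancer cell ratio of PTGS2 was not tested.

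**Figure D3:**
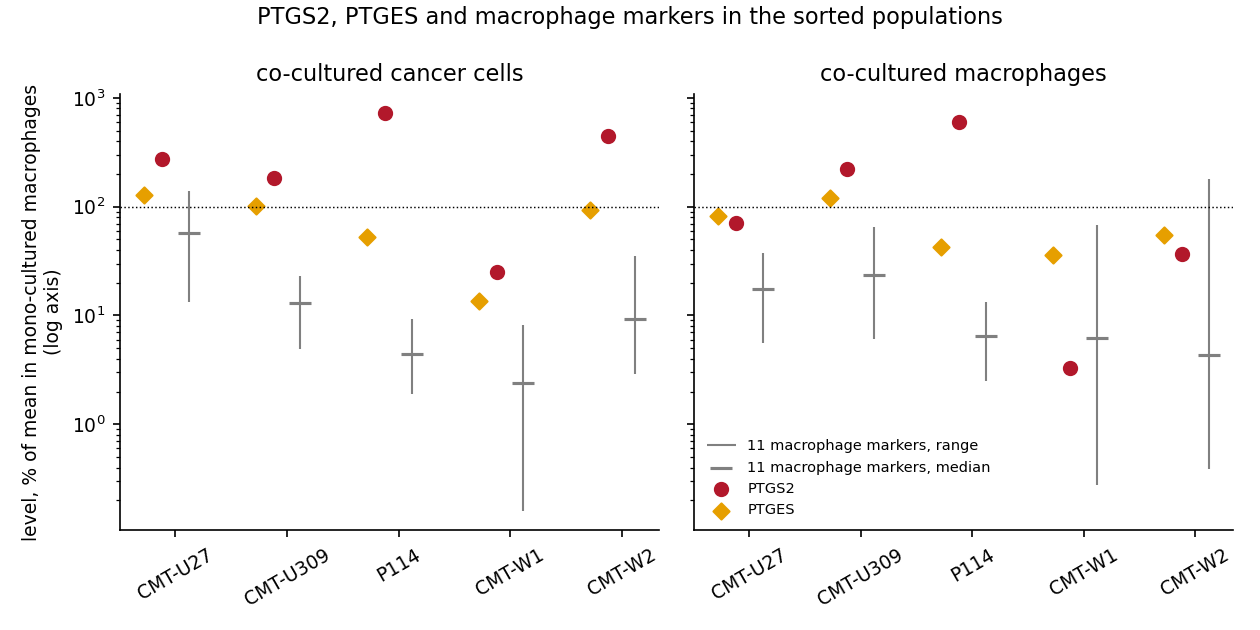
Levels of PTGS2, PTGES and 11 macrophage markers in each sorted population (horizontal axis, line), as percent of their mean in mono-cultured macrophages (vertical axis, log scale; dotted line 100%). Grey bars span the lowest to the highest marker and the dash is their median. In co-cultured cancer cells PTGS2 lies above every marker in all 5 lines, and in co-cultured macrophages with CMT-U27, CMT-U309 and P114.

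Genes around PTGS2 were taken from 5 lists: prostanoid synthesis, prostanoid receptors with transport and breakdown, the leukotriene and PAF arm, inducers of PTGS2 with their signalling, and immediate early genes. Of 106 genes, 33 had a named probe and 25 were bright enough to be tested in each cell type. In cancer cells 9 of the 25 rose and 1 fell, where 14.2% of all genes were called (6.58% higher and 7.6% lower), with a median log2 ratio of 0.71 against -0.05 over all genes. With normexp and loess only 2 of them were called. In macrophages 6 rose and 9 fell, where 49.3% of all genes were called (21.2% higher and 28.1% lower), with a median of -0.65 against -0.17, and with normexp and median centring 8 were called in place of 15. The values below are mean log2 ratios over 5 co-cultures ± SD, with adjusted p from limma over all genes.

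Of the synthesis genes, PTGES, the inducible prostaglandin E synthase that works with cyclooxygenase-2, rose with PTGS2 in cancer cells. Its ratio was 4.89 in CMT-W2, 3.90 in CMT-W1, 3.39 in CMT-U309, 3.31 in CMT-U27 and 3.21 in P114 (mean 3.74 ± 0.70, adjusted p = 0.00114), and the 2 PTGES probes gave 3.74 and 3.88. The SD over the lines was thus 0.70 on the log2 scale, against 2.21 for PTGS2. The mean PTGES level was 15.50 in mono-cultured macrophages and 11.05 in mono-cultured cancer cells. The part of macrophage RNA in its cancer cell ratio was not tested. In macrophages PTGES was -0.72 ± 0.78 (adjusted p = 0.0975), and the difference between cell types was -4.46 (adjusted p = 5.05e-05). PTGES in co-cultured cancer cells stood at 128% of its mono-cultured macrophage level in CMT-U27, 101% in CMT-U309, 93.1% in CMT-W2, 52.7% in P114 and 13.5% in CMT-W1.

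The other genes of the synthesis list showed another pattern. PTGES2, a constitutive prostaglandin E synthase, rose in macrophages (2.14 ± 0.36, adjusted p = 0.000475, with the mono-culture well above background on 5 of 10 arrays, but 0.49 with normexp and loess and 0.47, no longer called, with normexp and median centring, adjusted p = 0.0508) and was -0.44 ± 0.54 in cancer cells (adjusted p = 0.276). ANXA2, an annexin, rose in macrophages (3.17 ± 0.34, adjusted p = 0.000122) and was 0.71 ± 0.49 in cancer cells (adjusted p = 0.0976). Its level in co-cultured macrophages (17.05 ± 0.41) was near that in mono-cultured cancer cells (16.33 ± 0.79), CAV1 moved the same way, and the part of cancer cell RNA in the macrophage ratios was not tested. Thus of 3 genes of the synthesis list tested, 1 rose in cancer cells and 2 in macrophages, and none fell. Of all genes, 6.58% were higher in cancer cells and 21.2% in macrophages. PTGES and PTGES2 are the prostaglandin E synthases among the 3, and ANXA2 is not a synthase. PTGS1, the constitutive cyclooxygenase, was too dim to be tested: it was well above background on 1 of 10 mono-culture and 4 of 10 co-culture arrays of cancer cells, and on 0 and 3 of 10 of macrophages. HPGD, the main enzyme of prostaglandin breakdown, was not analysed here.

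Of 4 receptor and transport genes tested, none passed in cancer cells and 2 fell in macrophages. Of all genes, 14.2% passed in cancer cells and 28.1% were lower in macrophages. PTGER4, a prostaglandin E2 receptor, fell in macrophages in all 5 co-cultures (-1.47 ± 0.97, adjusted p = 0.0142, but -1.03 and adjusted p = 0.0929 with normexp and median centring). In cancer cells it was 1.59 ± 1.48 (adjusted p = 0.0793), from 0.44 in CMT-W1 to 3.89 in CMT-U27, and the cell types differed by -3.06 (adjusted p = 0.00626). ABCC4, an exporter of prostaglandins, was lower in macrophages by a small amount (-0.68 ± 0.24, adjusted p = 0.0303), a call lost under both normexp settings and without any line other than CMT-W1. PTGER2, the other prostaglandin E2 receptor named above and one chosen after its values were seen, was not tested, being well above background on 1 of 10 mono-culture and 5 of 10 co-culture arrays of cancer cells. PLA2G7, the enzyme that inactivates platelet-activating factor, was the only tested gene of its list. It rose in cancer cells (3.60 ± 1.61, adjusted p = 0.0133, or 0.0531 with normexp and loess). It fell in macrophages (-2.35 ± 1.88, adjusted p = 0.0188, or 0.0625 without CMT-W2). The mean PLA2G7 level was 17.34 in mono-cultured macrophages and 11.96 in mono-cultured cancer cells. The part of macrophage RNA in its cancer cell ratio was not tested.

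Among 13 tested genes of the list of inducers and their signalling, 7 rose and 1 fell in cancer cells, where 6.58% of all genes were higher and 7.6% lower. CXCL8, a neutrophil chemokine, rose by 7.67 ± 1.50 (adjusted p = 0.000741). The cytokines IL1A (5.25 ± 1.65, adjusted p = 0.00408) and IL1B (5.07 ± 2.37, adjusted p = 0.0135), both inducers of PTGS2, rose from mono-cultures that were well above background on 3 of 10 arrays. IL6 rose by 4.37 ± 1.54 (adjusted p = 0.00646; mono-culture above background on 4 of 10 arrays). The receptors TLR2 (4.64 ± 1.51, adjusted p = 0.00498) and TLR4 (3.55 ± 0.62, adjusted p = 0.00114), which sense bacterial products, rose as well. These receptors are also macrophage genes, the macrophage markers moved the same way, and the part of macrophage RNA in their ratios was not tested. In mono-cultured cancer cells TLR2 cleared the background threshold on 4 of 10 arrays and TLR4 on 8. IL1A, IL1B and CXCL8 also had higher levels in mono-cultured macrophages (13.15, 12.55 and 16.93) than in mono-cultured cancer cells (5.75, 5.35 and 10.93). IL6 did not (5.65 against 6.61). The part of macrophage RNA in the ratios of IL1A, IL1B, CXCL8 and IL6 was not tested either. IL10, an anti-inflammatory cytokine, fell (-1.12 ± 0.48, adjusted p = 0.0276), a call lost under both normexp settings and without CMT-U27, CMT-U309 or P114. The calls of IL1A, IL1B, IL6 and TLR2 were lost under both normexp settings, where the log2 ratios were 2.40 and 2.75 for IL1A, 2.41 and 2.71 for IL1B, 2.01 and 2.38 for IL6 and 2.07 and 2.43 for TLR2 (loess first, then median centring; adjusted p = 0.0602 to 0.128). TLR4 was 2.15 and not called with normexp and loess (adjusted p = 0.0531), and CXCL8 was called under both. NFKB1, a subunit of the transcription factor NF-kB, was 1.33 ± 0.74 (adjusted p = 0.0317), a call lost with normexp and loess and without any one of the 5 lines, and not made on its other probe. TNF, a classical inducer, did not pass (0.49 ± 0.34, adjusted p = 0.171).

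In macrophages 2 of the 13 tested genes of this list rose and 5 fell, where 21.2% of all genes were higher and 28.1% lower. The list holds signalling genes and the anti-inflammatory IL10 beside inducers, so these counts are not counts of inducers. IL6 rose by 4.53 ± 1.56 (adjusted p = 0.000744; mono-culture above background on 2 of 10 arrays), but by 2.01 with normexp and loess, and it was 2.21 and not called with normexp and median centring (adjusted p = 0.0522). NFKB1 was 0.74 ± 0.50 (adjusted p = 0.0442), lost without any line other than CMT-W1, and its other probe gave -0.49. TLR2 fell (-3.77 ± 1.41, adjusted p = 0.00111), as did TLR4 (-3.11 ± 1.20, adjusted p = 0.00139) and IL10 (-1.35 ± 0.30, adjusted p = 0.00255). IL1A was -1.89 ± 1.70 (adjusted p = 0.0300), lost under both normexp settings, without the filter on dim probes and without P114, CMT-W1 or CMT-W2. MAPK14, the p38 kinase, was -1.26 ± 0.93 (adjusted p = 0.0226), lost with normexp and median centring and without any line other than CMT-W1. IL1B (-2.04 ± 2.35, adjusted p = 0.0639) and TNF (0.32 ± 0.49, adjusted p = 0.319) did not pass.

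No immediate early gene of the 4 tested passed in cancer cells, where 14.2% of all genes did. Of the 4, 2 rose and 1 fell in macrophages, where 21.2% of all genes were higher and 28.1% lower. In macrophages MYC rose by 4.58 ± 0.58 (adjusted p = 8.45e-05), whereas in cancer cells it was -1.03 ± 0.91 (adjusted p = 0.0926). Its level in co-cultured macrophages (12.04 ± 0.90) lay between those in mono-cultured macrophages (7.46 ± 0.41) and mono-cultured cancer cells (13.15 ± 0.75). HSP70, whose near-identical family members a probe may not tell apart, was 1.56 ± 1.25 in macrophages (adjusted p = 0.0231, lost without CMT-U27 or CMT-W2). In cancer cells it was -2.81 ± 4.04 (adjusted p = 0.182), from -6.81 in CMT-U309 and -6.41 in P114 to 2.69 in CMT-W1. Its mono-culture level was 18.55 in CMT-U309 and 18.58 in P114, against 10.38 to 14.55 in the other lines. FOSB, a subunit of AP-1, was -0.80 ± 0.23 (adjusted p = 0.0166), lost with normexp and median centring and without CMT-U27, CMT-U309 or P114. NR4A1 did not pass in either cell type.

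**Figure D4:**
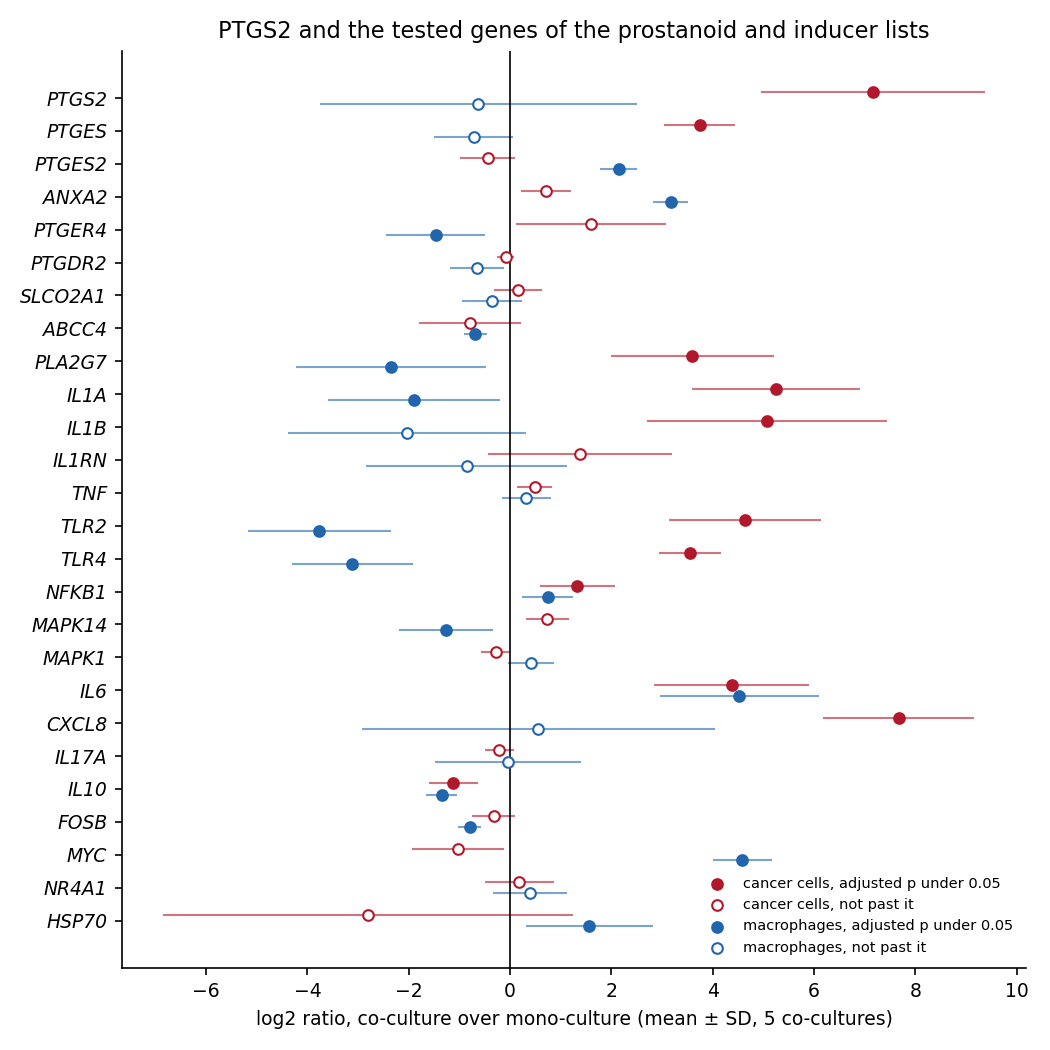
Mean log2 ratio ± SD over 5 co-cultures (horizontal axis) of PTGS2 and the 25 tested genes of the 5 lists (vertical axis), in cancer cells (red) and macrophages (blue). Filled points passed an adjusted p of 0.05. PTGS2, PTGES, CXCL8 and IL1B are called in cancer cells and not in macrophages.

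The pattern of PTGS2 over the 20 culture RNAs was set beside those of 779 other genes with a symbol that were bright enough in either cell type. The highest Pearson correlation of log2 levels was with CXCL8 (r = 0.96), against a median of 0.05 over the 779 genes. MDM2, an inhibitor of p53, followed (0.88), then the interferon-induced OAS2 (0.86) and OAS1 (0.84), PTGES (0.82), the monocyte chemokine CCL2 (0.81), CASP12 (0.81), SELENOK (0.80), the adhesion molecule ICAM1 (0.79) and PLA2G7 (0.77). These RNAs fall into 4 cultures and share lines, flasks and slides, so r is a description and carries no p. Over the 10 log2 ratios in place of levels, the 10 closest genes included only 2 of these, CXCL8 (0.98) and OAS1 (0.94).

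CXCL8 was picked for its correlation with PTGS2 over these same levels, so a similar order of lines follows from that choice. In mono-cultured cancer cells its level was 13.43 in CMT-U309, 11.93 in P114, 11.12 in CMT-W2, 10.46 in CMT-U27 and 7.72 in CMT-W1. This was the order of PTGS2, whose dim spots did not settle the order of CMT-U27 and CMT-W1. In co-cultured macrophages CXCL8 was 19.82 with P114, 19.18 with CMT-U309, 18.33 with CMT-U27, 16.89 with CMT-W2 and 13.25 with CMT-W1, again in the order of PTGS2. The macrophage log2 ratios of CXCL8 ran in that order too, from 4.18 with P114 through 2.86, 1.10 and -0.57 to -4.78 with CMT-W1, and their mean of 0.56 ± 3.48 did not pass (adjusted p = 0.707). These values are those of its brightest probe. Of the 4 CXCL8 probes, only 1 had a mean above 0 in macrophages (-0.77 to 0.56), and 0 were called. In co-cultured cancer cells the order differed, since CXCL8 was highest in CMT-W2 (19.59) and PTGS2 in P114. PTGES did not share the macrophage pattern: its macrophage ratios lay between -1.66 and 0.20, a narrower range than that of PTGS2.

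**Figure D5:**
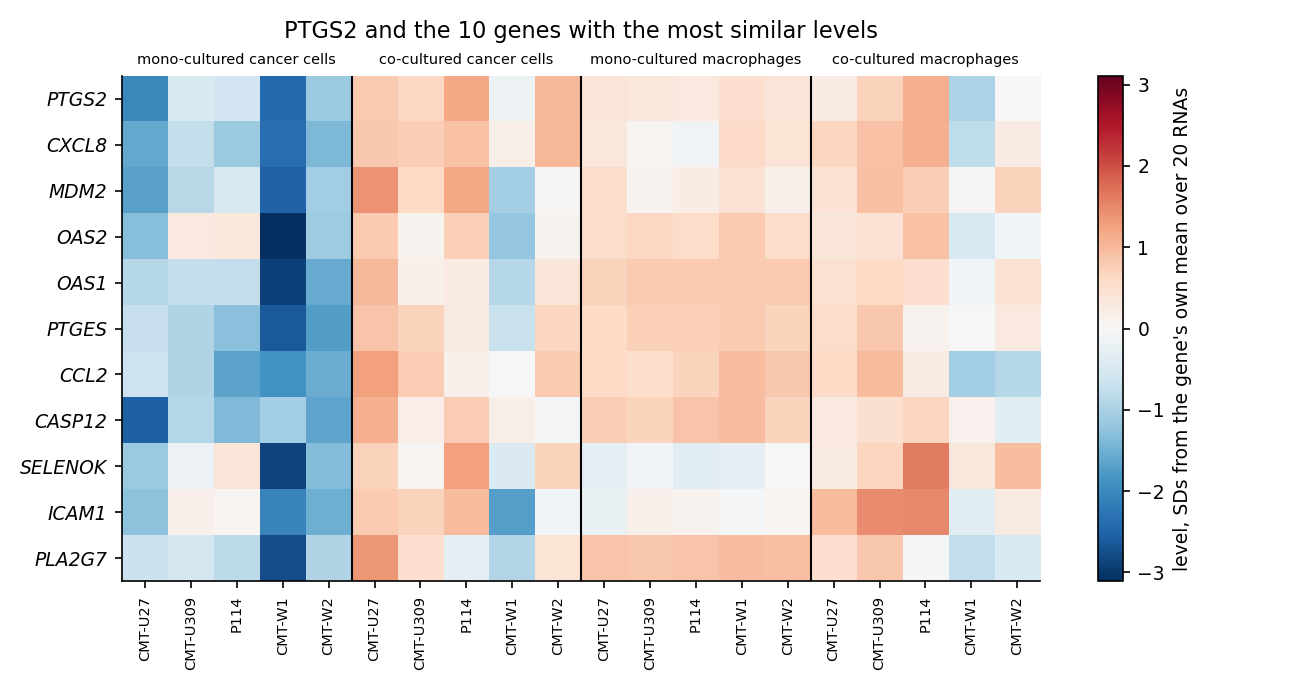
Levels of PTGS2 and the 10 genes with the highest Pearson correlation to it (rows) in the 20 culture RNAs (columns, by culture and line), in SDs from each gene's own mean over the 20 RNAs. Each line's mono-cultured cancer cells lie below the same line's co-cultured cancer cells in PTGS2 and CXCL8, and co-cultured macrophages with CMT-W1 are below the other co-cultured macrophages in both.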

How the data were processed

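Canine two-colour Agilent arrays, 20 in all, carried sorted co-cultured cells in one dye and their mono-culture in the other. The authors deposited the output of Agilent Feature Extraction (version 10.7.3.1): linear intensity per spot and dye, flags for background, saturation and outliers, and a log10 ratio of Cy5 over Cy3, background-corrected and dye-normalized by that software. A second deposited table holds the same log10 ratios turned to co-culture over mono-culture. No column was without a sample. Probes were named by RefSeq accession through a gene table of UU_Cfam_GSD_1.0 (1648 of 43603 probes). Coordinates are left out because the array was designed on a different build.

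Ratios were converted to log2 and each dye-swap pair was averaged. Levels are processed intensity after Aquantile normalization. Outlier spots were left out, a gene was its brightest probe, and it was tested where, in either culture, both arrays of 3 or more of the 5 co-cultures were well above background. Probes without a symbol were grouped by their identifier on the array, so a gene may be counted more than once among all genes. limma 3.58.1 (R 4.3.3) with Benjamini-Hochberg adjustment gave all adjusted p, in place of the unpaired t-test of the methods, which was an alternative. Python 3.11.15, numpy 2.4.6 and pandas 2.3.3 read the files. On simulated data with 200 genes changed, the cancer cell test (24034 genes) recovered 91% of 16-fold and 69% of 4-fold changes. Of its calls, 5.33% were false. The macrophage test (24227 genes, 200 changed) recovered 97% and 58%, with 5.49% of calls false. The test of macrophages minus cancer cells (25241 genes, 399 changed) recovered 92.9% and 52%, with 11.1% of calls false. A far larger share of genes was called in the real data, so these values need not carry over.

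PTGS2, the gene lists and the markers were chosen with earlier results of these data known. Named genes are PTGS2, list genes past the threshold in either cell type, PTGS1, PTGES and HPGD, and the 10 genes with the highest Pearson correlation of level with PTGS2. Populations from 1 co-culture are paired by design: their deviations from the group means correlated across genes at 0.53 (CMT-U309), 0.27 (CMT-W1), 0.26 (P114), 0.09 (CMT-W2) and 0.06 (CMT-U27). Alternatives were other background correction and normalization, filters, probes, single dyes, slide blocks, the replicate block and each line left out.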

Additional observations from a re-analysis of the deposited data

Results flagged for a closer look

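The log2 ratio of PTGS2 differed between macrophages and cancer cells by -7.79. Other named genes whose difference between the cell types passed an adjusted p of 0.05 (limma) are given as macrophages minus cancer cells. The difference was -8.41 for TLR2, -7.14 for IL1A, -7.11 for IL1B and CXCL8, -6.72 for CCL2, -6.66 for TLR4, -5.95 for PLA2G7 and -4.46 for PTGES. It was -4.26 for OAS1, -3.67 for CASP12, -3.61 for OAS2, -3.06 for PTGER4, -1.99 for MAPK14 and -1.04 for MDM2. It was above 0 for MYC (5.61), PTGES2 (2.58) and ANXA2 (2.46). In this comparison 31.7% of all genes passed. On simulated data, where only 399 of 25241 genes were changed, 11.1% of calls were false, a share that need not hold here.

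In 3 of 58 groups of 5 values, 1 value lay far from the other 4 by Dixon's test, which chance does in about 1 of 20 groups. These were PTGES2 in cancer cells (-1.37 in CMT-U27), IL1A in cancer cells (2.36 in CMT-W1) and OAS1 in macrophages (-1.93 with CMT-W1). None of the 6 groups of PTGS2 values was among them.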

How the results depend on the processing

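The level difference of PTGS2 between mono-cultures kept its direction under all 15 alternatives run. With slide as a fixed block it was 9.94. That value sets mono-cultured macrophages of CMT-U27 against mono-cultured CMT-W1, whose spot was below background. Under each of the other alternatives the difference passed (4.41 to 6.89). In cancer cells the ratio kept its direction under all 19 (5.41 to 7.97) and was no longer past the threshold with normexp and loess (5.41) or with the methods' unpaired t-test (7.17, p = 0.00197 before and 0.148 after adjustment). The difference between cell types kept its direction under all 19 and was lost only with slide as a fixed block, an alternative chosen after seeing the data (-8.46), which rests on 1 slide. That block also reversed the level difference of co-cultured macrophages minus co-cultured cancer cells (1.48, from -1.69) and of co-cultured cancer cells minus mono-cultured macrophages (-2.01, from 1.07), neither past the threshold. With 1 line left out, these values ranged from 6.47 to 7.97 for the cancer cell ratio, from -9.07 to -6.42 for the difference between cell types, from -1.51 to 0.55 for the macrophage ratio and from 0.53 to 1.94 for co-cultured cancer cells minus mono-cultured macrophages. With the replicate block (populations of the same co-culture as pairs), the difference between cell types was -7.79 (adjusted p = 0.00873) and the co-cultured level difference -1.69 (adjusted p = 0.411), so no call changed. The count of called list genes fell from 10 to 2 in cancer cells with normexp and loess, and from 15 to 8 in macrophages with normexp and median centring. It ranged from 8 to 10 and from 9 to 15 with 1 line left out. Of the 10 genes most like PTGS2, 2 were shared over the ratios and 4 with Spearman correlation. Of 225 values of called list genes under alternatives, 52 lost the call and 0 reversed. The causes were not tested. Dim mono-culture spots of CMT-U27 and CMT-W1 limit their ratios: with CMT-W1 at its bound, also chosen after seeing the data, the cancer cell mean was 6.86.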
